A study of Mus musculus with 101 samples.

Results

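The 36 genes described here act in the repair of bulky DNA adducts and of crosslinks between DNA strands. They were chosen by symbol for known roles in nucleotide excision repair (14 genes), nick sealing (3), the Fanconi pathway (10), recombination repair (4) and translesion synthesis (5). All 36 were found among the 15423 genes of the expression table.

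Primordial germ cells (PGCs) were enriched by FACS from gonads of single E13.5 embryos (E, embryonic day), and their RNA was sequenced. The mice were of the OG2 strain on a C57BL/6J background, in which the Pou5f1 promoter and distal enhancer drive EGFP, so that cells entered each library by the activity of this transgene. F0 dams received oil vehicle or benzo[a]pyrene (BaP), a polycyclic aromatic hydrocarbon whose metabolites bind DNA, by mouth, and the daily doses of BaP were 0.033, 0.2 and 2 mg/kg. Dosing ran from E6.5 to E11.5 where F1 embryos were collected and from E6.5 to E15.5 for the F2 and F3 lineages, whose own dams were not dosed.

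The 48 female and 53 male embryos fall into 56 litters as inferred from the stems of the sample titles, which do not name the dam. Of the 34 vehicle embryos, F1 gave 5 females with 5 males, while F2 and F3 gave 6 females with 6 males apiece. From low to high dose, the F1 females numbered 2, 5 and 5, and the F1 males 2, 6 and 8. The F2 females numbered 3 per dose, as did the F2 males. For F3 the numbers were 4, 2 and 4 among females and 4, 4 and 3 among males. Libraries of 99 embryos held between 5004382 and 87240533 reads on genes, with a median of 7789673. The F1 generation included 11 deep libraries of 21247642 reads or more, while no other F1 library exceeded 9745816. Of these 11, 1 was from a vehicle female, 2 from vehicle males, and 4 females and 4 males were from the 0.2 and 2 mg/kg-day groups.

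As background, nucleotide excision repair finds lesions that distort the helix, opens the DNA around them, cuts the damaged strand on both sides and fills the gap. The Fanconi pathway unhooks crosslinks that block replication and hands the broken ends to recombination repair, while translesion polymerases copy past lesions that remain. Germ cells are known to rely on the Fanconi genes, whose loss depletes them, and at the stage studied female germ cells begin meiosis, when recombination proteins are needed, while male germ cells stop dividing.

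Markers of germ cells and of sex were examined first. The 8 germ cell markers summed from 2878 to 4819 (median 3654) normalized counts in vehicle females and from 2631 to 5494 (median 3933) in vehicle males, with Dppa3 the most abundant. Genes of meiotic entry were higher in females for 9 of 9 tested, as in Stra8, at a median of 450.5 in females and 1.23 in males (log2 difference 7.40, limma adjusted p = 1.85e-28), Msx1, at 10.9 in females and 0.3204 in males (log2 difference 3.58, limma adjusted p = 1.59e-28), and Rec8, at 24.2 in females and 0.872 in males (log2 difference 3.88, limma adjusted p = 2.34e-23). Of 7 male germ cell genes 5 were higher in males, led by Lefty2, at 0.212 in females and 84.02 in males (log2 difference -6.87, limma adjusted p = 3.36e-54), Lefty1, at 1.13 in females and 78.3 in males (log2 difference -5.83, limma adjusted p = 1.35e-49), and Tdgf1, at 0.216 in females and 16.97 in males (log2 difference -4.63, limma adjusted p = 1.08e-27). Of the germ cell markers, 3 were higher in females and 4 in males, among them Nanos3, at 53.02 in females and 99.8 in males (log2 difference -0.95, limma adjusted p = 3.84e-05), Dppa3, at 1689 in females and 2259 in males (log2 difference -0.57, limma adjusted p = 4.53e-05), and Tfap2c, at 17.4 in females and 9.95 in males (log2 difference 0.90, limma adjusted p = 6.73e-05).

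Somatic markers differed between the sexes as well. The 6 Sertoli cell markers summed from 0.123 to 1.403 (median 0.666) in vehicle females and from 21.1 to 994 (median 506) in vehicle males, where Cst9 was the most abundant, and the medians of Cst9 and Sox9 in females were 0. Of 5 pregranulosa markers 4 were in the table, without Foxl2, and summed from 1.47 to 11.03 (median 3.02) in females and from 1.597 to 28.2 (median 5.77) in males, with Wnt4 the most abundant in females and Kitl in males. The 5 Leydig cell markers summed from 1.302 to 6.94 (median 3.14) in females and from 1.597 to 36.3 (median 5.72) in males, with Insl3 the most abundant in females and Hsd3b1 in males. For the 6 stroma markers, led by Dcn, the sums ran from 0.207 to 21.8 (median 1.06) and from 0.156 to 69.2 (median 1.98). Endothelial markers, 5 of 6 without Cdh5, led by Plvap, ran from 6.69 to 18.2 (median 11.4) and from 3.07 to 22.4 (median 8.396). Macrophage markers, 6 of 7 without Adgre1, led by C1qb, ran from 1.47 to 22.3 (median 11.1) and from 0.634 to 21.5 (median 7.04). Erythroid markers, 5 of 7 without Hbb-bt and Hbb-bs, had medians of 1.402 and 1.41, but 1 vehicle male reached 4768 through Hba-a2 and Hba-a1, which carry identical values. None of the markers in the table was at 0 in every embryo. In such bulk samples, fewer cells of a type and less RNA per cell cannot be told apart, and the part of these somatic transcripts in the sex differences below was not tested.

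Among the 53 males, 2 libraries of F3 stood apart, both singled out after their values were seen. Male D1390.5 at 0.2 mg/kg-day had the lowest Lefty1 of all males, 20.54 against 48.5 or more in the other 52. By smaller gaps it also had the highest Stra8, 14.7 against 14.1 at most, the lowest Cst9, 18.1 against 18.6 or more, and the lowest Xpa, 7.902 against 7.95. Vehicle male D3402.3 had the highest Fancb and Rev3l and the lowest Ercc1 of all males. The germ cell markers of D3402.3 had the highest sum of the vehicle males, 5494. Its pregranulosa markers also had the highest sum of all males, 28.2, with vehicle male D3001.1 next at 27.9. In vehicle males Kitl led this sum and reached 26.5. Of the same markers, Wnt4 was lower in vehicle males than in vehicle females (medians of 0.283 and 1.49), and Fst did not pass the threshold. Without the deep libraries, 17 repair genes (47.2%, against 57.7% of all genes) differed by sex in vehicle embryos, where Ercc2 and Fancf were lost and Ercc8 and Fancd2 gained. In exposed embryos 23 (63.9%, against 68.2%) differed. Without these 2 males the counts were again 17 and 23, against 57.7% and 67.96% of all genes.

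Per kilobase of merged exons, the level of the repair genes in vehicle embryos spanned from a median of 179 normalized counts in females and 143 in males for Cetn2, a centrin that steadies the lesion sensor Xpc, down to 0.1897 and 0.186 for Polh, the polymerase that copies past ultraviolet lesions. Next to Cetn2 in both sexes stood Lig1, Ercc1, Gtf2h1, Fancl and Rad18, in an order that differed by sex, with levels per kilobase between 17.3 and 50.7. The helicase subunit Ercc2 and the nuclease subunit Ercc4 were, after Polh, the lowest in both sexes, at 0.345 and 0.397 in females. On this scale Fancb held rank 7 of 36 in females and 13 in males, Rev3l ranks 23 and 30, and Ercc5 ranks 26 and 33. At these depths Polh rested on a median of 10 reads per vehicle embryo and on a single read in 1 embryo, whereas Fancb rested on 353.

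Female and male vehicle embryos of all generations, 17 of each sex, were compared with limma on log2(normalized count + 0.5), and p-values were adjusted over the 13288 genes with a mean of at least 0.5. At an adjusted p under 0.05, 17 of 36 repair genes differed. Of these, 10 were higher in females (27.8% of the 36, against 28.6% of all genes tested) and 7 were higher in males (19.4%, against 27.9%). The share higher in females was thus near that of all genes, and the share higher in males below it. With embryos scaled to equal totals, 12 were higher in females (33.3%, against 32.4% of all genes) and 3 in males (8.33%, against 22.4%). The median difference, female minus male, was 0.06 log2 over the 36 and -0.00193 over all genes, and single values ran from -0.81 to 1.44. Fold changes are on the log2(normalized count + 0.5) scale, which understates them for low genes. The p-values weigh each difference against the spread between embryos within 8 sex-by-dose groups, with generations pooled and littermates counted singly.

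Within nucleotide excision repair the directions were split, with 6 of 14 genes higher in males (42.9%, against 27.9% of all genes) and 2 higher in females (14.3%, against 28.6%). Xpa, which checks the lesion and positions the incision complex, lay between 5.55 and 10.97, with a median of 8.92, in vehicle females and between 11.8 and 20.2, with a median of 14.6, in vehicle males. Its difference was -0.81 (95% interval -1.02 to -0.59, limma adjusted p = 2.09e-10). Each of the 17 females lay below every male, so that the groups did not overlap. Ercc1, the partner of the nuclease that cuts on the 5′ side, lay between 67.04 and 113, with a median of 98.3, in females and between 66.7 and 202, with a median of 158, in males. The difference was -0.67 (95% interval -0.87 to -0.48, limma adjusted p = 5.65e-09). Of the males 15 exceeded every female, and the lowest was D3402.3. Rad23b, which stabilizes Xpc, lay between 14.00 and 23.04, with a median of 17.6, in females and between 17.6 and 48.9, with a median of 24.9, in males. With a difference of -0.56 (95% interval -0.76 to -0.35, limma adjusted p = 1.94e-06), 14 males exceeded every female and the other 3 overlapped with them.

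Smaller differences towards males were found for Ercc2 and Ercc3, the helicases of transcription factor IIH, and for Ddb1, an adaptor of the ubiquitin ligase at ultraviolet lesions. Ercc2 lay between 0.517 and 2.85, with a median of 1.44, in females and between 0.585 and 4.11, with a median of 2.08, in males, a difference of -0.41 (95% interval -0.74 to -0.08, limma adjusted p = 0.0290). Ercc3 lay between 12.8 and 31.5, with a median of 22.6, in females and between 22.7 and 39.9, with a median of 28.1, in males, a difference of -0.30 (95% interval -0.52 to -0.09, limma adjusted p = 0.0125). The groups overlapped for all 3 genes. For Ddb1 the values were between 38.4 and 85.8, with a median of 55.2, in females and between 44.8 and 95.7, with a median of 71.1, in males, a difference of -0.31 (95% interval -0.52 to -0.11, limma adjusted p = 0.00644). Scaling to equal totals left none of these 3 past the threshold, and generation as a term also ended the calls of Ercc2 and Ddb1.

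The exceptions in the female direction were Ddb2 and Ercc5. Ddb2, which recognizes ultraviolet lesions together with Ddb1, lay between 6.49 and 26.7, with a median of 12.6, in females and between 3.58 and 9.16, with a median of 6.09, in males. The difference was 1.11 (95% interval 0.75 to 1.47, limma adjusted p = 9.88e-08). Of the females 14 exceeded every male, and female values were spread more widely. Ercc5, the nuclease that cuts on the 3′ side, lay between 4.66 and 15.6, with a median of 9.101, in females and between 1.89 and 6.29, with a median of 4.06, in males. With a difference of 1.09 (95% interval 0.82 to 1.35, limma adjusted p = 1.29e-11), 16 of 17 females exceeded every male. Thus, among the genes of the 2 incision nucleases, Ercc5 differed towards females and the Ercc1 subunit towards males, while Ercc4, the catalytic partner of Ercc1, passed in neither. Ercc4 spanned 1.502 to 4.09 in females (median 2.67) and 1.71 to 4.65 in males (median 2.42), a difference of 0.04 (95% interval -0.24 to 0.32, limma adjusted p = 0.823), with overlapping groups.

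The other 5 genes of this group did not pass the threshold. Ercc8, a subunit of the ligase that acts at stalled transcription, came nearest. It spanned 11.54 to 22.6 in females (median 15.00) and 11.8 to 22.5 in males (median 17.8), a difference of -0.26 (95% interval -0.50 to -0.02, limma adjusted p = 0.0553). It passed with litter as a replicate block, with littermates averaged, under upper quartile scaling, with the compared groups alone and without the deep libraries. Its partner Ercc6 spanned 11.9 to 22.4 in females (median 15.4) and 10.6 to 21.2 in males (median 15.03), a difference of 0.03 (95% interval -0.18 to 0.25, limma adjusted p = 0.802). The groups overlapped for both. The lesion sensor Xpc spanned 5.69 to 10.2 in females (median 7.57) and 6.39 to 11.51 in males (median 7.75), a difference of -0.07 (95% interval -0.27 to 0.12, limma adjusted p = 0.5605). Cetn2 spanned 129 to 792 in females (median 294) and 119 to 455 in males (median 235), a difference of 0.30 (95% interval -0.05 to 0.65, limma adjusted p = 0.145). Gtf2h1, another subunit of transcription factor IIH, spanned 54.6 to 94.5 in females (median 73.5) and 42.7 to 102 in males (median 81.2), a difference of -0.04 (95% interval -0.27 to 0.20, limma adjusted p = 0.798). Again the groups overlapped for each of the 3. The signs of Xpc and Gtf2h1 turned positive when embryos were scaled to equal totals, so no direction can be given for them. On the log2(normalized count + 0.5) scale, the intervals of Xpc, Ercc4, Ercc6 and Gtf2h1 exclude a difference of 1.5-fold or more in either direction.

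Of the 3 genes of nick sealing, Lig1 was higher in females, 1 of 3 against 28.6% of all genes. This ligase, which joins Okazaki fragments and closes repair patches in dividing cells, lay between 81.3 and 210.2, with a median of 159, in females and between 57.8 and 149, with a median of 109, in males. The difference was 0.51 (95% interval 0.27 to 0.75, limma adjusted p = 0.000217), and 11 females exceeded every male. Lig3, the ligase used outside replication, spanned 14.4 to 28.3 in females (median 20.2) and 14.3 to 40.4 in males (median 19.03), a difference of -0.09 (95% interval -0.29 to 0.11, limma adjusted p = 0.4801), with a sign that turned positive under equal totals. Its scaffold Xrcc1 spanned 5.42 to 35.1 in females (median 11.8) and 5.27 to 31.5 in males (median 13.9), a difference of -0.23 (95% interval -0.64 to 0.17, limma adjusted p = 0.336), and the groups overlapped for both.

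In the Fanconi pathway 4 of 10 genes were higher in females (40%, against 28.6% of all genes) and 1 was higher in males (10%, against 27.9%). The largest difference of all 36 was that of Fancb, a subunit of the core complex that brings the ubiquitin ligase to a crosslink. Fancb lay between 39.9 and 76.4, with a median of 58.6, in females and between 9.59 and 48.9, with a median of 20.7, in males. Its difference was 1.44 (95% interval 1.18 to 1.70, limma adjusted p = 4.44e-17). Here 15 of 17 females exceeded every male, and 16 males lay below every female, the remaining male being D3402.3. Fancl, the ligase itself, lay between 58.7 and 99.7, with a median of 82.8, in females and between 44.7 and 102.6, with a median of 58.5, in males, a difference of 0.42 (95% interval 0.25 to 0.59, limma adjusted p = 1.22e-05). No female exceeded every male, but all 17 lay above the male median. The core subunit Fanca lay between 9.78 and 15.98, with a median of 13.3, in females and between 3.899 and 13.9, with a median of 8.597, in males, a difference of 0.56 (95% interval 0.35 to 0.76, limma adjusted p = 2.79e-06), and 7 females exceeded every male.

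The ligase acts on a pair of proteins, Fanci and Fancd2. Fanci lay between 25.96 and 37.4, with a median of 30.1, in females and between 13.2 and 26.8, with a median of 22.2, in males. The difference was 0.51 (95% interval 0.36 to 0.67, limma adjusted p = 3.05e-08), and 15 females exceeded every male. Fancd2 spanned 25.7 to 39.2 in females (median 31.3) and 18.8 to 43.1 in males (median 26.9), a difference of 0.19 (95% interval 0.00 to 0.38, limma adjusted p = 0.0754), did not pass, and overlapped between the sexes. It passed with litter as a replicate block, under equal totals and without the deep libraries. The core subunit Fancf was the 1 gene of the group higher in males. It lay between 8.98 and 17.2, with a median of 12.7, in females and between 12.4 and 19.6, with a median of 14.3, in males, a difference of -0.22 (95% interval -0.42 to -0.03, limma adjusted p = 0.0444). With 7 females below every male the groups overlapped, and the call was lost under equal totals, in edgeR's quasi-likelihood test, with generation as a term and without the deep libraries.

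The remaining core subunits Fancc, Fance and Fancg and the translocase Fancm did not pass. Fancc spanned 3.19 to 10.9 in females (median 5.75) and 3.83 to 10.6 in males (median 6.701), a difference of -0.16 (95% interval -0.48 to 0.17, limma adjusted p = 0.428). Fance spanned 1.68 to 10.2 in females (median 5.39) and 1.902 to 8.02 in males (median 4.25), a difference of 0.19 (95% interval -0.23 to 0.61, limma adjusted p = 0.457). Fancg spanned 2.08 to 6.66 in females (median 4.12) and 1.73 to 4.69 in males (median 3.44), a difference of 0.24 (95% interval -0.07 to 0.54, limma adjusted p = 0.186). The groups overlapped for these 3, as they did for Fancm. Fancm spanned 8.29 to 18.5 in females (median 11.3) and 8.26 to 21.8 in males (median 11.4), a difference of -0.03 (95% interval -0.29 to 0.24, limma adjusted p = 0.881), a value that turned positive under equal totals and without the 2 males that stood apart. For Fancm this interval excludes a difference of 1.5-fold, whereas that of Fance reaches it.

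Of the 4 genes of recombination repair, Brca2 and Palb2 were higher in females, 2 of 4 against 28.6% of all genes. Brca2, which acts at broken ends during recombination, lay between 34.7 and 74.5, with a median of 44.9, in females and between 19.01 and 48.1, with a median of 30.1, in males. The difference was 0.71 (95% interval 0.46 to 0.96, limma adjusted p = 7.75e-07), and 8 females exceeded every male. Palb2, which links Brca2 to Brca1, lay between 14.7 and 27.7, with a median of 19.9, in females and between 9.19 and 24.1, with a median of 12.8, in males, a difference of 0.60 (95% interval 0.39 to 0.82, limma adjusted p = 1.10e-06). Although only 3 females exceeded every male, 14 males lay below every female. The end resection factor Brca1 spanned 18.7 to 41.1 in females (median 28.6) and 20.3 to 38.3 in males (median 26.7), a difference of 0.07 (95% interval -0.12 to 0.27, limma adjusted p = 0.549). Rad51c, which acts late in recombination, spanned 28.6 to 50.4 in females (median 33.98) and 21.97 to 44.2 in males (median 35.00), a difference of 0.11 (95% interval -0.13 to 0.35, limma adjusted p = 0.453). Females and males overlapped widely in both, and both intervals exclude a difference of 1.5-fold.

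Among 5 translesion genes Rev3l alone was higher in females, 1 of 5 against 28.6% of all genes. Rev3l, the catalytic subunit of the polymerase that extends from a bypassed lesion, lay between 14.6 and 39.4, with a median of 26.6, in females and between 5.26 and 31.02, with a median of 10.8, in males. The difference was 1.16 (95% interval 0.86 to 1.46, limma adjusted p = 1.85e-10). Only 2 females exceeded every male, because the highest male was again D3402.3, but 14 males lay below every female. Rev1, the scaffold of this polymerase, spanned 46.2 to 71.7 in females (median 57.4) and 52.2 to 90.4 in males (median 62.5), a difference of -0.12 (95% interval -0.25 to 0.01, limma adjusted p = 0.125). The inserting polymerase Polh spanned 0.212 to 1.54 in females (median 1.13) and 0.156 to 2.92 in males (median 1.105), a difference of -0.23 (95% interval -0.62 to 0.17, limma adjusted p = 0.343), and the groups overlapped for both. Polk, another inserting polymerase, spanned 3.85 to 8.44 in females (median 4.91) and 2.79 to 8.43 in males (median 4.38), a difference of 0.08 (95% interval -0.21 to 0.37, limma adjusted p = 0.663). The ubiquitin ligase Rad18, which calls these polymerases to a stalled fork, spanned 100.1 to 179 in females (median 138) and 65.3 to 215 in males (median 126), a difference of 0.15 (95% interval -0.09 to 0.39, limma adjusted p = 0.304), again with overlap in both. The interval of Polh is the widest of these.

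**Figure D1:**
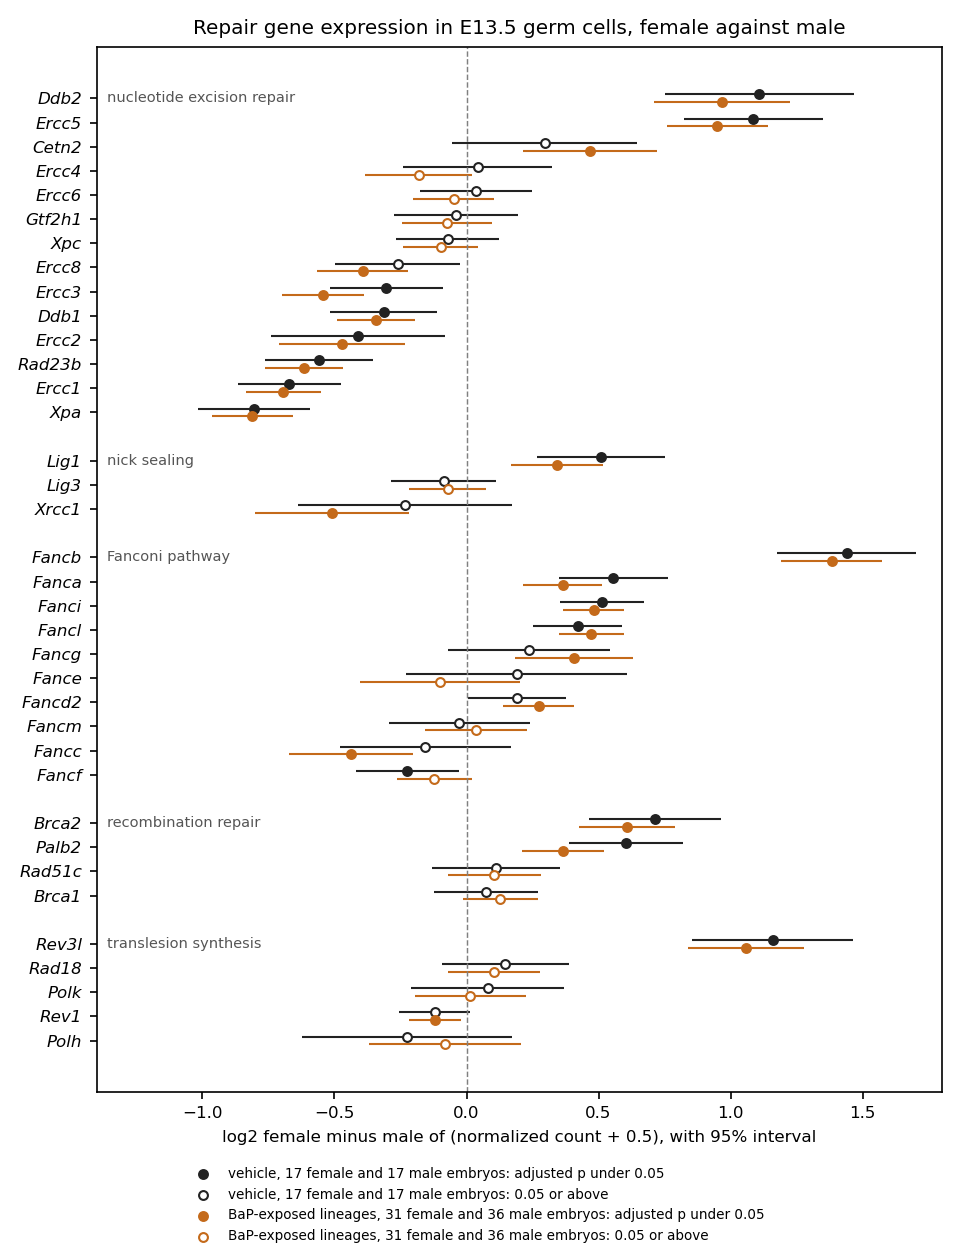
Log2 differences between female and male embryos for the 36 repair genes, grouped by role, with 95% intervals; black marks the 17 female and 17 male vehicle embryos, orange the 31 female and 36 male embryos of exposed lineages, and filled points an adjusted p under 0.05. Fancb, Rev3l, Ddb2 and Ercc5 lie farthest towards females, with vehicle differences of 1.44, 1.16, 1.11 and 1.09, and Xpa and Ercc1 farthest towards males, with -0.81 and -0.67.

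Chromosomal positions were looked up for the called genes. Fancb (chrX:164980592-164997272, plus strand, GRCm38, GENCODE M21) and Cetn2 (chrX:72913532-72918411, minus strand) are the X-linked genes among the 36. Chosen after the value of Fancb was seen, a count over the X chromosome found 59.4% of 490 genes higher in vehicle females and 12.2% higher in males, against 27.2% and 28.7% of 11491 autosomal genes. On the X chromosome 50 genes had a difference above that of Fancb, and on the autosomes 373 did. Xpa lies at chr4:46155347-46196311 on the minus strand, Ercc5 at chr1:44147744-44181260 (plus strand), Ddb2 at chr2:91211572-91236982 (minus strand) and Rev3l at chr10:39732118-39875211 (plus strand).

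The exons of 11 repair genes overlap those of another gene of the table, on the opposite strand, and the counting is not stated to use strand, so that reads in the shared stretch cannot be told apart. The shared part was 23.8% of the exon bases of Ddb2 (with Acp2), 17.8% of Ercc2 (Klc3), 15.9% of Fanci (Polg), 14.96% of Fancf (Gas2), 13.7% of Fancl (Vrk2) and 10.5% of Fanca (Zfp276), all called above. It was 4.07% of Xpa (Ncbp1) and 3.41% of Ercc1 (Cd3eap). Of the genes not called, Rev1 shares 26.6% with Eif5b, Lig3 25.1% with Rffl and Fancc 2.21% with 2010111I01Rik. Partners that differed by sex in the direction of the called gene were Vrk2, at 1.37 log2 (limma adjusted p = 1.67e-18), Polg, at 0.59 log2 (limma adjusted p = 1.10e-09), Acp2, at 0.42 log2 (limma adjusted p = 0.0243), Ncbp1, at -0.47 log2 (limma adjusted p = 5.48e-05), and Cd3eap, at -0.41 log2 (limma adjusted p = 0.000638). Gas2 differed in the direction opposite to Fancf, at 0.36 log2 (limma adjusted p = 0.0210). Klc3 and Zfp276 did not pass, at -0.32 log2 (limma adjusted p = 0.202) and 0.19 log2 (limma adjusted p = 0.253). Of the partners of genes not called, Eif5b gave 0.40 log2 (limma adjusted p = 3.61e-06), Rffl -0.39 log2 (limma adjusted p = 0.000930) and 2010111I01Rik -0.02 log2 (limma adjusted p = 0.884). No exon overlap with another gene of the table was found for Fancb, Rev3l, Ercc5, Brca2, Palb2, Lig1 or Rad23b.

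The other genes of these pathways were counted in the same comparison, in which 28.6% of all genes were higher in females and 27.9% in males. In nucleotide excision repair 15 further genes were tested, of which 2 were higher in females (13.3%) and 6 in males (40%), with a median of -0.21 log2. The ligase subunit Cul4b had a median of 192 in females and 102.8 in males (log2 difference 0.76, limma adjusted p = 2.37e-08), the transcription factor IIH kinase subunit Ccnh of 424 in females and 236 in males (log2 difference 0.81, limma adjusted p = 3.32e-07) and the core subunit Gtf2h3 of 86.2 in females and 158 in males (log2 difference -0.72, limma adjusted p = 1.43e-06). Of 24 further Fanconi and recombination genes 10 were higher in females (41.7%) and 5 in males (20.8%; median 0.15). Nbn and Mre11a, which bind broken ends, had medians of 43.01 in females and 25.9 in males (log2 difference 0.76, limma adjusted p = 3.14e-08) and 24.6 in females and 16.9 in males (log2 difference 0.60, limma adjusted p = 8.60e-07). The nuclease scaffold Slx4 had 3.58 in females and 7.15 in males (log2 difference -0.68, limma adjusted p = 5.29e-06). Of 9 further translesion genes 3 were higher in females (33.3%) and 1 in males (11.1%; median 0.24). The ubiquitin-conjugating enzyme Ube2a, partner of Rad18, had a median of 393 in females and 190.3 in males (log2 difference 1.05, limma adjusted p = 4.38e-24). Mad2l2, the accessory subunit that binds Rev3l, had 41.02 in females and 28.3 in males (log2 difference 0.55, limma adjusted p = 7.82e-06), and the ligase Shprh 19.3 in females and 11.98 in males (log2 difference 0.60, limma adjusted p = 0.000145).

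Genes of the cell cycle were counted alongside, against the same shares of all genes. Of 16 genes of S phase 5 were higher in females (31.2%) and 3 in males (18.8%; median 0.11), with Mcm2 at 58.5 in females and 83.8 in males (log2 difference -0.50, limma adjusted p = 0.000141), Rrm2 at 190.2 in females and 127 in males (log2 difference 0.68, limma adjusted p = 0.000231) and Tyms at 344 in females and 441 in males (log2 difference -0.37, limma adjusted p = 0.00990). Of 14 mitosis genes 4 were higher in each sex (28.6%; median -0.15), with Aurkb at 35.6 in females and 72.8 in males (log2 difference -1.02, limma adjusted p = 2.05e-07), Cdk1 at 199 in females and 256 in males (log2 difference -0.32, limma adjusted p = 1.31e-05) and Ccnb2 at 1132 in females and 874 in males (log2 difference 0.41, limma adjusted p = 0.00326). Their part in the differences of the repair genes was not tested.

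The same question was asked in the 31 females and 36 males of exposed lineages, none of which enters the vehicle medians or differences. Both comparisons came from the same fit of all embryos, so that they share its estimate of spread. Their intervals and p-values are therefore not independent. Here 23 of 36 repair genes differed, 13 higher in females (36.1%, against 33.6% of all genes) and 10 higher in males (27.8%, against 33.8%). Called in both comparisons, with the same direction, were 16 genes, which is 94.1% of the vehicle calls and 69.6% of the exposed calls. Over all genes the same shares were 94.3% and 78.9%, so that the repair genes stood at or below them. Fancb lay between 36.6 and 80.3, with a median of 60.3, in exposed females and between 10.2 and 36.6, with a median of 23.6, in exposed males. The difference was 1.38 (95% interval 1.19 to 1.57, limma adjusted p = 1.34e-24), and 30 of 31 females exceeded every male, the highest of which was D1390.5. Rev3l lay between 8.88 and 39.5, with a median of 23.7, in females and between 3.14 and 17.6, with a median of 11.4, in males, a difference of 1.06 (95% interval 0.84 to 1.28, limma adjusted p = 7.94e-15). Xpa lay between 5.797 and 13.2, with a median of 8.73, in females and between 7.902 and 29.7, with a median of 15.9, in males. With a difference of -0.81 (95% interval -0.96 to -0.66, limma adjusted p = 9.67e-17), 9 females lay below every male, the lowest of which was again D1390.5.

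Fancf, called in vehicle embryos, spanned 8.701 to 19.6 in females (median 12.4) and 8.005 to 20.3 in males (median 13.8), a difference of -0.12 (95% interval -0.26 to 0.02, limma adjusted p = 0.123), in exposed embryos. Past the threshold in exposed embryos but not in vehicle embryos were 3 genes towards females and 4 towards males, and in all 7 the groups overlapped. Their medians in exposed females and males were 408 and 245 for Cetn2, 4.496 and 2.98 for Fancg, 34.7 and 27.8 for Fancd2, 13.7 and 18.9 for Ercc8, 10.5 and 16.8 for Xrcc1, 5.01 and 7.27 for Fancc and 59.2 and 65.4 for Rev1. Towards females the differences were 0.47 (95% interval 0.22 to 0.72, limma adjusted p = 0.000803) in Cetn2, 0.41 (95% interval 0.18 to 0.63, limma adjusted p = 0.000901) in Fancg and 0.27 (95% interval 0.14 to 0.41, limma adjusted p = 0.000243) in Fancd2. Towards males they were -0.39 (95% interval -0.56 to -0.22, limma adjusted p = 3.68e-05) in Ercc8, -0.51 (95% interval -0.80 to -0.22, limma adjusted p = 0.00157) in Xrcc1, -0.44 (95% interval -0.67 to -0.20, limma adjusted p = 0.000709) in Fancc and -0.12 (95% interval -0.22 to -0.02, limma adjusted p = 0.0271) in Rev1. A call in only 1 of the 2 comparisons does not show that the sex difference changed with exposure, and the exposed groups were larger. The test of that change, the sex-by-exposure interaction, found 0 of 36 repair genes and 0% of all genes in limma, and at an unadjusted p under 0.05 0 repair genes against 1.96% of all genes. In edgeR's quasi-likelihood and likelihood ratio tests 0 repair genes passed as well. The 95% intervals of the change ran from -0.81 to 0.63 log2 over the 36. Ercc3 had the smallest p and a change of -0.24 (-0.50 to 0.03).

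Within single generations, vehicle females and males were compared in a fit of 34 embryos over 13182 genes. In F1, 12 repair genes passed, 10 higher in females (27.8%, against 16.8% of all genes) and 2 higher in males (5.56%, against 14.6%). In F2, 14 passed, 10 higher in females (against 16.4%) and 4 higher in males (11.1%, against 16.7%). In F3, 11 passed, 8 higher in females (22.2%, against 16.8%) and 3 higher in males (8.33%, against 16.1%). With all libraries, in each generation the share of repair genes higher in females exceeded, and the share higher in males fell short of, that of all genes; neither contrast was tested. Without the deep libraries, which leaves 4 females and 3 males, 6 repair genes passed in F1, 4 higher in females (11.1%, against 11.9% of all genes) and 2 higher in males (5.56%, against 11.48%). Among all genes in F1, 2209 of 4137 calls were higher in females, and 2476 of 3866 under equal totals.

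The genes past the threshold in every generation were 9, namely Xpa and Ercc1 towards males and Ercc5, Ddb2, Fancb, Fanci, Brca2, Palb2 and Rev3l towards females. The 7 towards females are 19.4% of the 36, against 10.9% of all genes tested, and the 2 towards males 5.56%, against 10.4%. Under equal totals Xpa and Fanci left this set and Fancl entered it, and in both edgeR tests Brca2 and Palb2 left it. Without the deep libraries, Ercc5, Ddb2 and Palb2 left the set. The 4 that then remained towards females are 11.1%, against 9.499% of all genes, and the 2 towards males 5.56%, against 9.598%. Fancb measured 52.5, 56.5, 58.6, 63.2 and 68.98 in the 5 vehicle females of F1 and 16.3, 18.1, 20.3, 24.01 and 25.8 in the 5 males. In F2 it lay between 39.9 and 66.2 (median 56.5) in 6 females and between 9.59 and 28.5 (median 19.8) in 6 males, and in F3 between 51.2 and 76.4 (median 60.5) and between 11.8 and 48.9 (median 23.4). The sexes did not overlap in any generation, with differences of 1.51 in F1 (limma adjusted p = 2.11e-05), 1.46 in F2 (limma adjusted p = 6.64e-06) and 1.36 in F3 (limma adjusted p = 1.86e-05). Xpa measured 5.89, 8.33, 10.6, 10.7 and 10.97 in F1 females and 11.8, 13.8, 14.2, 16.2 and 18.1 in F1 males. In F2 it lay between 7.31 and 10.5 (median 9.02) in females and between 12.9 and 19.5 (median 15.3) in males, and in F3 between 5.55 and 9.93 (median 8.57) and between 12.04 and 20.2 (median 15.2). Its differences were -0.67 in F1 (limma adjusted p = 0.00692), -0.78 in F2 (limma adjusted p = 0.000572) and -0.95 in F3 (limma adjusted p = 4.95e-05), again without overlap in any generation.

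Rev3l measured 14.6, 23.6, 29.9, 30.03 and 36.2 in F1 females and 5.26, 9.89, 10.5, 12.3 and 12.4 in F1 males. Its differences were 1.37 in F1 (limma adjusted p = 0.000215), 1.19 in F2 (limma adjusted p = 0.000295) and 0.95 in F3 (limma adjusted p = 0.00318). In F3 the sexes overlapped through the single male D3402.3, at 31.02, whereas the other 5 males reached at most 10.9. Ercc5 measured 6.53, 7.55, 9.24, 9.84 and 15.6 in F1 females and 3.12, 3.18, 4.79, 6.095 and 6.26 in F1 males, with differences of 0.97 in F1 (limma adjusted p = 0.00488), 1.31 in F2 (limma adjusted p = 6.05e-05) and 0.96 in F3 (limma adjusted p = 0.00222). In F1 the lowest female exceeded the highest male. Ddb2 measured 8.17, 11.8, 12.6, 25.3 and 26.01 in F1 females and 3.86, 5.59, 7.59, 8.49 and 9.16 in F1 males, where 2 of the 5 females stood well above the others. Its differences were 1.14 in F1 (limma adjusted p = 0.00583), 0.97 in F2 (limma adjusted p = 0.00895) and 1.23 in F3 (limma adjusted p = 0.00112), and the sexes overlapped in F1 and F2 but not in F3.

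Differences between the generations of vehicle embryos were tested next. In limma's F tests over F1, F2 and F3, 0 of 36 repair genes and 0% of all genes passed in vehicle females, and 0 of 36 and 0% in vehicle males. At an unadjusted p under 0.05 there were 0 repair genes in either sex, against 1.56% of all genes in females and 4.02% in males. The sex-by-generation interaction gave 0 repair genes and 0% of all genes, and 0 repair genes against 1.20% at an unadjusted p under 0.05. Neither test of edgeR called a repair gene in these comparisons.

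Exposed lineages were then compared with vehicle embryos of the same sex, first over all generations, where all doses share the vehicle embryos. In limma 0 of 36 repair genes passed an adjusted p of 0.05 in the 8 comparisons, against 1.36% of all genes in females at 2 mg/kg-day and 0% in the other 7. Both edgeR tests also called 0 repair genes, and without the deep libraries limma called 0% of all genes in females at 2 mg/kg-day. At an unadjusted p under 0.05 there were 0, 0 and 8 repair genes in females at 0.033, 0.2 and 2 mg/kg-day, against 2.08%, 1.05% and 23.3% of all genes, and 1 for the mean of the doses, against 8.67%. In males there were 1, 1 and 1, against 4.67%, 3.36% and 3.91%, and 0 for the mean, against 1.14%. Even the 8 of 36 in females at 2 mg/kg-day, 22.2%, stand near the share of all genes. That count depended on the setting, with 5 under upper quartile scaling (13.9%, against 22.5% of all genes) and 16 under equal totals (44.4%, against 31.7%). It was 6 without the deep libraries (16.7%, against 19.7%). In edgeR's quasi-likelihood and likelihood ratio tests it was also 6 (16.7%, against 20.3% and 20.7%). The 95% intervals lay within a 2-fold change in either direction for all 36 genes in 7 comparisons and for 35 of 36 in females at 2 mg/kg-day.

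The gene with the smallest p in females at 2 mg/kg-day was Fancc. It lay between 1.37 and 5.47 (median 4.401) in the 12 exposed embryos and between 3.19 and 10.9 (median 5.75) in the 17 vehicle embryos, with an exposed minus vehicle difference of -0.48 (-0.83 to -0.12, limma adjusted p = 0.0958). The groups overlapped. The 2 lowest exposed values, 1.37 and 1.87, belong to deep F1 libraries, and the other 10 lay between 3.83 and 5.47. Without the deep libraries of all groups the difference was -0.31 (limma adjusted p = 0.234). The other 7 with an unadjusted p under 0.05, named after their values were seen, were Ddb2, Ercc6, Fance, Brca2 and Palb2, with negative differences, and Cetn2 and Fancd2, with positive ones. Brca2 gave -0.33 (-0.60 to -0.05, limma adjusted p = 0.136), Palb2 -0.29 (-0.53 to -0.06, limma adjusted p = 0.1202) and Ddb2 -0.49 (-0.88 to -0.10, limma adjusted p = 0.116). With embryos scaled to equal totals, 4 genes passed in this comparison (11.1%, against 7.74% of all genes), Brca2, Ddb2, Fancc and Palb2, each lower after exposure. That scaling also moved the median of all genes from -0.02 to -0.19 log2, and it called 1027 genes in place of 181. The median over the 36 repair genes was -0.10 as deposited.

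In the other comparisons over generations, values are given as exposed and vehicle medians, then difference and interval. In females the smallest p belonged to Polh at 0.033 mg/kg-day, at 0.564 and 1.13, a difference of -0.40 (-0.87 to 0.08, limma adjusted p = 0.9999), and to Fancd2 at 0.2, at 34.3 and 31.3, a difference of 0.19 (-0.02 to 0.41, limma adjusted p = 1), and in the mean of doses, at 34.7 and 31.3, a difference of 0.17 (0.00 to 0.33, limma adjusted p = 0.563). In males it belonged to Brca1 at 0.033 mg/kg-day, at 21.1 and 26.7, a difference of -0.31 (-0.55 to -0.08, limma adjusted p = 0.894), to Ercc3 at 0.2, at 32.3 and 28.1, a difference of 0.24 (0.01 to 0.47, limma adjusted p = 0.9997), and to Fancl at 2, at 51.4 and 58.5, a difference of -0.20 (-0.38 to -0.03, limma adjusted p = 0.997). For the mean of doses in males it was Fancf, at 13.8 and 14.3, a difference of -0.14 (-0.31 to 0.03, limma adjusted p = 1). Brca1 lay between 17.8 and 27.97 (median 21.1) in the 9 exposed embryos and between 20.3 and 38.3 (median 26.7) in the 17 vehicle embryos, and the groups overlapped. None of these values passed.

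**Figure D2:**
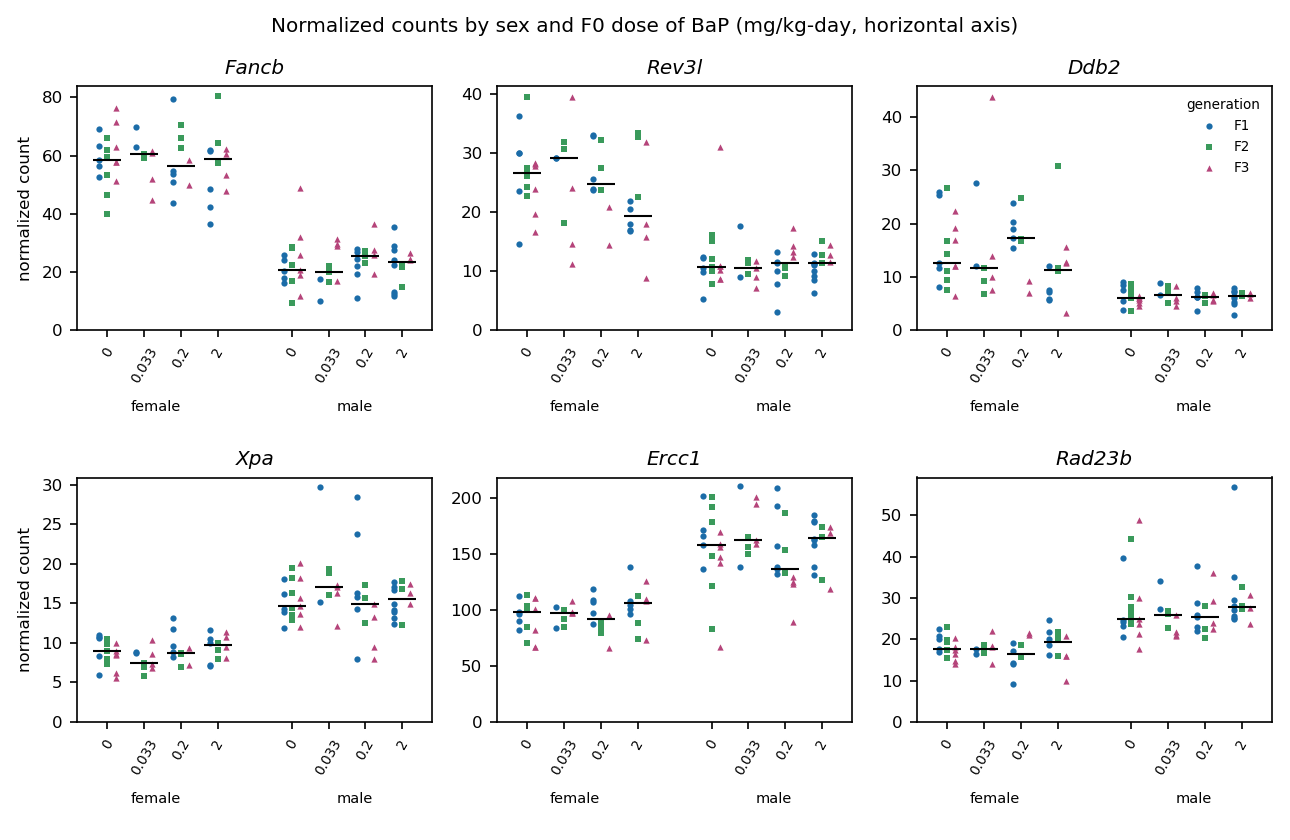
Normalized counts of Fancb, Rev3l, Ddb2, Xpa, Ercc1 and Rad23b in each embryo by sex and F0 dose of BaP in mg/kg-day, with generation by colour and shape and a bar at the median of each group. Most female values lie apart from most male values over the doses, while vehicle and exposed embryos of 1 sex overlap for each gene, as for Fancb, whose vehicle females lie between 39.9 and 76.4, with a median of 58.6. An exception is Ddb2 in F1 at 2 mg/kg-day, where females measured 5.65, 5.94, 7.15, 7.59 and 12.1 and males lay between 2.90 and 7.98.

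By generation, limma called 0 of 36 repair genes in the 18 comparisons of a dose with vehicle, against 0.00733% of all genes in F1 females at 2 mg/kg-day, 0.145% in F2 males at 0.2 mg/kg-day and 0% in the other 16. Again both edgeR tests called 0. At an unadjusted p under 0.05 and in the order 0.033, 0.2 and 2 mg/kg-day, there were 0, 1 and 3 repair genes in F1 females, against 0.183%, 0.902% and 9.89% of all genes, and 0, 0 and 1 in F1 males, against 6.34%, 1.17% and 1.75%. In F2 there were 3, 0 and 0 in females, against 3.39%, 2.42% and 4.61%, and 0, 0 and 0 in males, against 1.57%, 9.58% and 3.71%. In F3 there were 1, 2 and 5 in females, against 4.01%, 12.8% and 15.4%, and 1, 3 and 0 in males, against 3.06%, 10.6% and 0.883%. As 1 of 36 genes is 2.78%, 3 are 8.33% and 5 are 13.9%, most of these shares stand near or below those of all genes. In F2 females at 0.033 mg/kg-day, where 3 genes stand against 3.39%, the genes were Xpa, Ercc2 and Ercc4, each with a negative difference and named after their values were seen.

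Groups of 2 to 8 embryos leave these comparisons wide. On the log2(normalized count + 0.5) scale, which understates changes of low genes, the repair genes with an interval within 2-fold were counted. Their number ran from 20 of 36 in F1 males at 0.033 mg/kg-day, with 2 exposed embryos, to 35. The comparisons with 35 were F1 males at 2, F2 males at 0.033 and F3 males at 0.033 mg/kg-day. The smallest p of all 18 comparisons, found after the values were seen, was that of Ddb2 in F1 females at 2 mg/kg-day. Ddb2 measured 5.65, 5.94, 7.15, 7.59 and 12.1 in the 5 exposed females, against 8.17, 11.8, 12.6, 25.3 and 26.01 in the 5 vehicle females. The difference was -0.99 (-1.58 to -0.40, limma adjusted p = 0.343), and the groups overlapped, as the highest exposed female exceeded the 2 lowest vehicle females. Of these exposed libraries 2 were deep, as was 1 of the vehicle group. In F2 and F3 females at 2 mg/kg-day Ddb2 gave 0.26 (-0.37 to 0.90, limma adjusted p = 0.8600) and -0.50 (-1.23 to 0.24, limma adjusted p = 0.543).

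**Figure D3:**
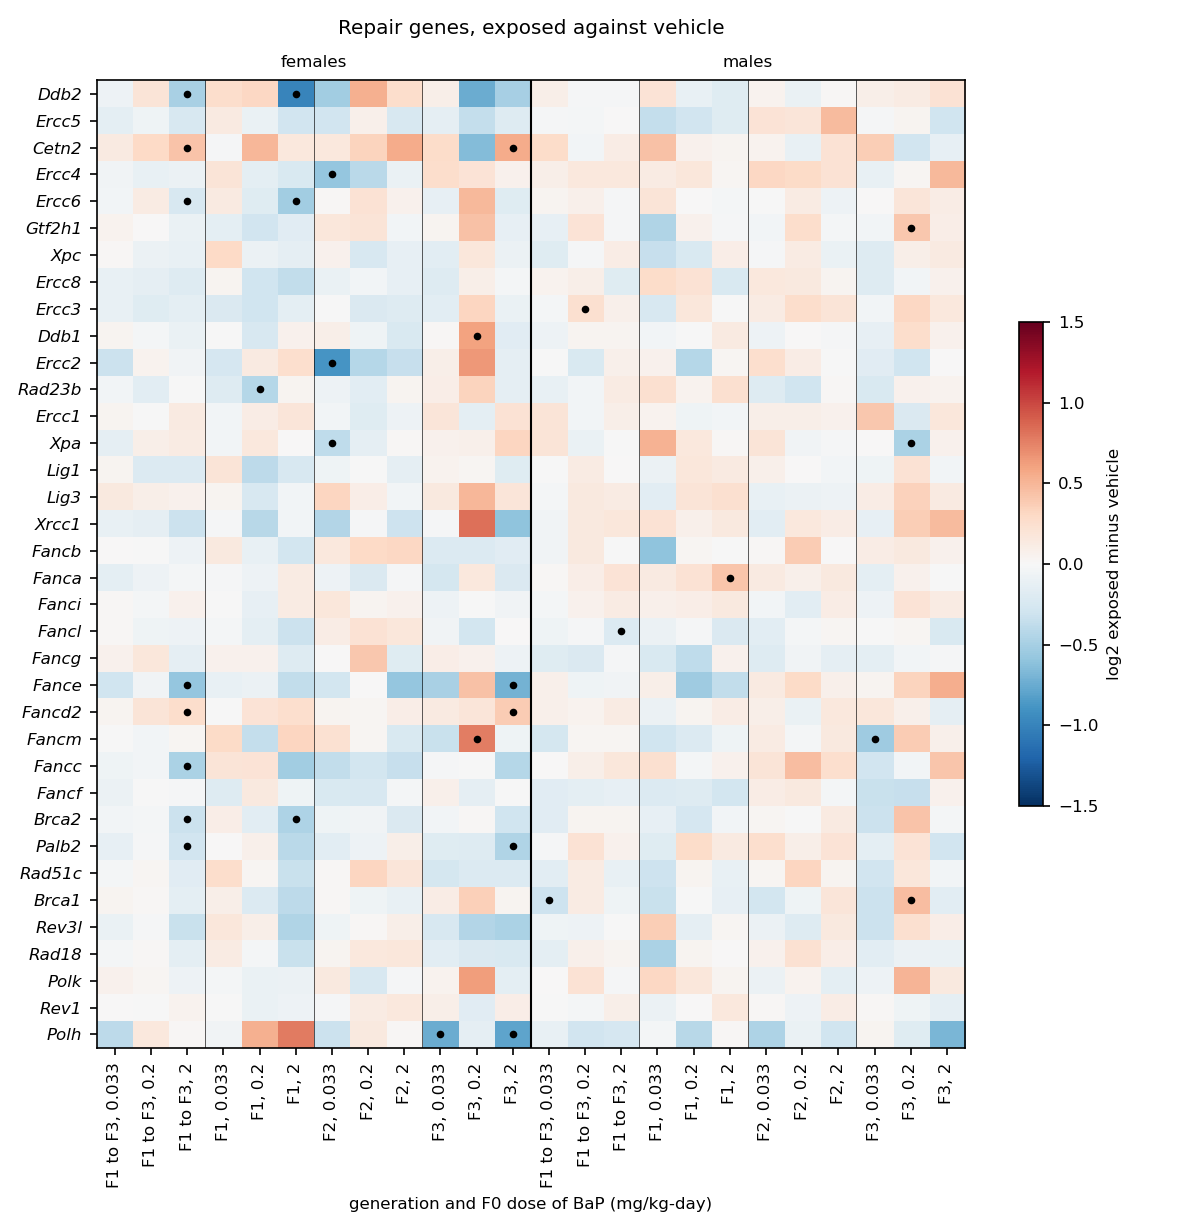
Log2 difference between exposed and vehicle embryos (colour) for the 36 repair genes (rows) in females and males, over all generations and in each generation at 0.033, 0.2 and 2 mg/kg-day BaP (columns); dots mark an unadjusted p under 0.05. No cell passed the adjusted threshold, and the darkest cell is Ddb2 in F1 females at 2 mg/kg-day, at -0.99.

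Somatic markers of exposed females exceeded those of every vehicle female in 9 of 31 for erythroid markers, 5 for endothelial, 5 for Sertoli, 4 for macrophage, 2 for pregranulosa, 1 for stroma and 0 for Leydig cell markers. The summed erythroid markers reached 1653 in an exposed female, against 223 at most in vehicle females, with medians of 4.25 against 1.402. The summed macrophage markers reached 81.3 in an exposed female, against 22.3 at most in vehicle females, the stroma markers 54.2 against 21.8, and the pregranulosa markers 29.3 against 11.03. In that order the medians were 8.73 against 11.1, 2.59 against 1.06 and 4.26 against 3.02. The germ cell markers summed from 2849 to 5019 (median 3995) in exposed females, where 2 exceeded every vehicle female. Among the 36 exposed males, 2 exceeded every vehicle male for Sertoli, 2 for macrophage, 1 for endothelial and 3 for germ cell markers, and 0 for erythroid, pregranulosa, stroma and Leydig cell markers. The part of these transcripts in the values of the repair genes was not tested.

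Promoter sequences from RefSeq (GRCm38.p6), each 300 bases long with 250 before the start of the transcript, were found for 31 of the 36 genes in 36 windows, and not for Xpc, Ercc3, Ddb2, Fancd2 and Rev3l. Letters of 4 motifs were searched on both strands. Letters known to be bound by E2F factors (TTTCCCGC, TTTGGCGC or TTTCGCGC) were in 5 of 36 windows of the repair genes (13.9%), against 3.2% of windows of genes in the table and 1.8% of all windows. The genes were Brca2, Fancg, Lig1 and Rad51c, the last with 2 windows. The letters CNCCTCAG, bound by Stra8, were in 1 of 36 windows of the repair genes (2.8%), against 9.0% of windows of genes in the table and 7.9% of all windows, and the repair gene was Fancf. CCAAT was in 16 of 36 windows of the repair genes (44.4%), against 38.4% of windows of genes in the table and 37.4% of all windows, and GCGTG, the core bound by the Ahr dimer, in 23 of 36 windows of the repair genes (63.9%), against 48.3% of windows of genes in the table and 32.4% of all windows. These shares describe letters only. The median GC content was 58.3% in the windows of the repair genes, 60% in those of genes in the table and 52.7% in all windows.

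The 250 bases before the start are shown for 5 genes called in the sex comparison, Ercc5, Brca2 and Fanca from the female direction and Xpa and Rad23b from the male direction, so that both can be read side by side. They are Ercc5 (chr1:44147494-44147743, plus strand), Brca2 (chr5:150522371-150522620, plus strand), Fanca (chr8:123318577-123318826, minus strand), Xpa (chr4:46196312-46196561, minus strand) and Rad23b (chr4:55349792-55350041, plus strand), in GRCm38.p6 and 5′ to 3′ on the strand of the gene. Capitals mark the letters searched. In Ercc5 these are CCAAT at -195 and GCGTG at -97 from the start, in Brca2 the E2F letters on the opposite strand at -168, in Fanca CCAAT at 2 sites, in Xpa CCAAT at -238, and in Rad23b CCAAT at -103 and GCGTG on the opposite strand at 2 sites.
Ercc5: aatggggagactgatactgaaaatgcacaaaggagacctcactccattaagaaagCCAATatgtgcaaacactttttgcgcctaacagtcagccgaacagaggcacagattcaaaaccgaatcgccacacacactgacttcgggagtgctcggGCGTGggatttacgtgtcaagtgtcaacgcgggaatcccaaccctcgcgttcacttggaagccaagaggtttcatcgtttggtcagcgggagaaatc
Brca2: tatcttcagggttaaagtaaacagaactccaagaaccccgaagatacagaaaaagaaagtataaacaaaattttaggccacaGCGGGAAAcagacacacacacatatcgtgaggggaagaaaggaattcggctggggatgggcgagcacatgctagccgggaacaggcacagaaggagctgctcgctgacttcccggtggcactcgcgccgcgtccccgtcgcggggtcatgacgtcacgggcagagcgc
Fanca: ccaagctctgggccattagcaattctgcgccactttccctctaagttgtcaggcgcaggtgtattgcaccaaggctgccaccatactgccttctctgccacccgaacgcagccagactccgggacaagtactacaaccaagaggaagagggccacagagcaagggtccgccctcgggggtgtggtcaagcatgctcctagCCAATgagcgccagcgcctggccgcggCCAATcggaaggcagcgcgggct
Xpa: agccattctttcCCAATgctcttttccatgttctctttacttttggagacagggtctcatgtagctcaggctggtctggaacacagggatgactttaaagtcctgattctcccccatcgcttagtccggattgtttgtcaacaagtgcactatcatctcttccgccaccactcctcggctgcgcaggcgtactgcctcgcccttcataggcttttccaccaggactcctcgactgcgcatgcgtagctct
Rad23b: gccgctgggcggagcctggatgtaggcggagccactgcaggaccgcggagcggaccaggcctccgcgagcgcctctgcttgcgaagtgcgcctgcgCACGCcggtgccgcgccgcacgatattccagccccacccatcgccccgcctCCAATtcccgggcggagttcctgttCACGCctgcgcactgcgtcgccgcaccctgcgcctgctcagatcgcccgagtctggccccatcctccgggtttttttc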

How the data were processed

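RNA-seq values of PGCs from 48 female and 53 male E13.5 embryos were analysed. The signal deposited by the authors is a count per gene, scaled with TMM factors from edgeR; upstream they used Trim Galore, then STAR against GRCm38, then Rsubread over exons, and no versions are given in the sources used here. In 99 embryos all 1423762 nonzero values lay within 0.05 of a whole multiple of 1 step per embryo, 0 outside, so that reads were recovered. The exceptions, D4190.1 (an F3 male of the highest dose) and D1388.3 (a vehicle female of F3), enter all but the edgeR fits.

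Expression was tested in R 4.3.3 with limma 3.58.1 (trended empirical Bayes) on values in log2(normalized count + 0.5), for genes with a mean of at least 0.5, with Benjamini-Hochberg adjustment over all genes tested and a threshold of 0.05. A fit of 8 sex-by-dose groups covered the 101 embryos, a second the 34 vehicle embryos, and 1 fit each generation. Other settings tried were pseudocounts of 0.1 and 1, fits of unfiltered genes, a minimum mean of 5, upper quartile scaling, equal totals, edgeR 4.0.16 likelihood ratio and quasi-likelihood tests on recovered reads (7444 and 7373 genes called between vehicle females and males, limma 7502), litter as a replicate block, littermates averaged, generation as a term, compared groups alone, each embryo left out, and, in F1, depth class as a term or no deep libraries. Fits without the deep libraries over generations, and without 2 F3 males, were chosen after seeing the data. The methods were tested on simulated data. Figures were drawn with matplotlib 3.10.9.

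Litters were inferred from the stems of the sample titles, which do not state them. Brother and sister could be paired in 15 vehicle litters, where the correlation of their deviations from group means ran from -0.389 to 0.655 (median 0.325) and exceeded 0.1 in 11. Although most pairs exceeded it, the main fits treated embryos as single units, so their p-values leave out the likeness of littermates. Litter as a replicate block was among the other settings. Descent from a shared F0 dam, which the sample titles do not give, was not modelled. The repair genes and all other lists were chosen with earlier results of these data known. By rule, the text names each repair gene in the vehicle sex comparison, any that passed elsewhere, otherwise the smallest p in each comparison over generations, up to 3 genes of smallest p in each other list, and the most abundant gene of each cell type list over all embryos. Gene positions and exon overlaps are from GENCODE M21. Results of some listed genes are not reported here.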

Additional observations from a re-analysis of the deposited data

Results flagged for a closer look

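The mean log2 level of the 36 repair genes and the normalized counts of Fancb, Rev3l, Ddb2, Xpa, Ercc1 and Rad23b were searched for single embryos far from their group, in groups of 4 or more. Of 98 tests 10 found one, where chance gives about 1 in 20. The mean level gave none. F3 vehicle male D3402.3 was found for both Rev3l, at 31.02 with the nearest male at 10.9, and Ercc1, at 66.7 with the nearest at 141. Rad23b was high in a male of each of 3 groups, in F1 at 2 mg/kg-day (D2593.1, 56.7, nearest 35.1), in F1 vehicle (D2580.2, 39.7, nearest 24.6) and in F2 vehicle (D3001.1, 44.4, nearest 30.3). Ercc1 was also high in F1 female C4258.2 at 2 mg/kg-day, a deep library (138, nearest 108), and in F3 female D3744.1 at 0.033 mg/kg-day (108, nearest 98.05), and low in F3 male D4021.2 at 0.2 mg/kg-day (88.7, nearest 123). Fancb was low in F3 male D3501.1 at 0.033 mg/kg-day (16.99, nearest 29.1), and Rev3l high in F2 vehicle female C4988.3 (39.4, nearest 27.5). The causes were not tested.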

How the results depend on the processing

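Over the 14 alternatives run, between 14 and 19 repair genes differed by sex in vehicle embryos, and between 21 and 23 over the 13 run for exposed embryos. Over the same alternatives 4758 to 8270 of all genes differed in vehicle embryos and 5772 to 9786 in exposed embryos. With litter as a replicate block the counts were 19 and 23, and the block changed no count of repair genes by over 1.5 times. Of the 17 genes called in vehicle embryos, 13 passed in all alternatives run and none changed sign. The calls of Ercc2, Ercc3, Ddb1 and Fancf were lost in some, and Ercc8, Cetn2 and Fancd2 passed in some. The 9 genes past the threshold in every generation became 6 without the deep libraries and 12 with litter as a replicate block. Under equal totals they became 8, and in each edgeR test 7. In F1 vehicle embryos 12 genes became 6 without the deep libraries, with fewer embryos. Leaving out 1 embryo at a time gave 9 to 12 genes in F1, 10 to 14 in F2, 8 to 12 in F3, and 0 in the 18 exposure comparisons. In females of all generations at 2 mg/kg-day, 0 became 4 under equal totals, and the cause was not tested. There the count of all genes ran from 0 to 1027 over the alternatives, against 181, and was 0 without the deep libraries. In the same comparison the 8 with an unadjusted p under 0.05 became 5 under upper quartile scaling, 16 under equal totals and 6 without the deep libraries. Values near 0 that did not pass changed sign. In vehicle embryos these were, under equal totals, Xpc at 0.0166, Gtf2h1 at 0.0530, Lig3 at 0.00439 and Fancm at 0.0617 log2. With generation as a term they were Gtf2h1 at 0.0373, Lig3 at 0.0385 and the pregranulosa marker Fst at 0.153. Fancm was at 0.0239 without males D1390.5 and D3402.3. In exposed embryos they were Ercc6 and Lig3 with generation as a term, at 0.0129 and 0.0393, and Ercc6 without the deep libraries, at 0.00772. The cause was not tested.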

Other observations

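Genes listed under other repair pathways were counted in the vehicle sex comparison, in which 28.6% of all genes were higher in females and 27.9% in males. Of 17 base excision genes 4 were higher in females and 5 in males. The glycosylase Neil3, with a median of 19.6 in females and 7.75 in males (log2 difference 1.39, limma adjusted p = 1.37e-15), stood near Fancb in size, while the endonuclease Apex1 had 420.4 in females and 569 in males (log2 difference -0.35, limma adjusted p = 6.70e-06) and the polymerase Polb 54.2 in females and 43.3 in males (log2 difference 0.38, limma adjusted p = 7.82e-06). Of 9 end joining genes 2 were higher in females and 1 in males. The polymerase Poll had a median of 1.05 in females and 4.05 in males (log2 difference -1.63, limma adjusted p = 1.69e-12), the kinase Prkdc of 22.5 in females and 15.48 in males (log2 difference 0.50, limma adjusted p = 0.000471) and the end-binding Xrcc6 of 204 in females and 158 in males (log2 difference 0.38, limma adjusted p = 0.0272).

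Damage signalling genes were higher in females for 3 and in males for 2 of 13 in the same comparison. The checkpoint kinases Chek1 and Atr had medians of 106 in females and 56.7 in males (log2 difference 0.81, limma adjusted p = 2.26e-08) and 68.4 in females and 36.5 in males (log2 difference 0.89, limma adjusted p = 2.87e-08), and the adaptor Trp53bp1 of 26.4 in females and 33.5 in males (log2 difference -0.38, limma adjusted p = 9.86e-06). Of 14 p53 target genes 3 were higher in females and 4 in males. Pmaip1, a promoter of cell death, had a median of 0.621 in females and 85.9 in males (log2 difference -6.26, limma adjusted p = 2.93e-43), and Bax, which opens mitochondria in dying cells, of 162 in females and 313 in males (log2 difference -0.86, limma adjusted p = 2.41e-13). The stress gene Sesn1 had 12.7 in females and 7.72 in males (log2 difference 0.90, limma adjusted p = 2.23e-06). Of 8 Ahr target genes listed 3 passed the filter, 2 higher in females and 1 in males. These were Tiparp, at 40.5 in females and 17.04 in males (log2 difference 1.27, limma adjusted p = 5.44e-14), Cyp1b1, at 1.44 in females and 0.798 in males (log2 difference 0.63, limma adjusted p = 0.00720), and Nqo1, at 12.2 in females and 17.2 in males (log2 difference -0.45, limma adjusted p = 0.0102).

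Among markers of other cell types in the same comparison, Sertoli genes were higher in males for 5 of 5 tested, as in Cst9, at a median of 0 in females and 401 in males (log2 difference -9.04, limma adjusted p = 2.31e-44), Ptgds, at 0.268 in females and 103.5 in males (log2 difference -6.64, limma adjusted p = 6.56e-31), and Sox9, at 0 in females and 4.83 in males (log2 difference -3.15, limma adjusted p = 1.84e-19). Of the pregranulosa genes Kitl had 0.796 in females and 4.72 in males (log2 difference -2.14, limma adjusted p = 1.66e-08), Wnt4 1.49 in females and 0.283 in males (log2 difference 1.08, limma adjusted p = 7.46e-06) and Fst 0.539 in females and 0.634 in males (log2 difference -0.11, limma adjusted p = 0.7003). Of the endothelial genes Flt1 had 0.319 in females and 1.04 in males (log2 difference -0.80, limma adjusted p = 0.000305) and Plvap 10.8 in females and 6.16 in males (log2 difference 0.60, limma adjusted p = 0.0121). Of the Leydig genes Hsd3b1 had 0.226 in females and 3.52 in males (log2 difference -2.21, limma adjusted p = 5.70e-10), Insl3 1.53 in females and 0.623 in males (log2 difference 0.55, limma adjusted p = 0.0324) and Star 1.33 in females and 1.42 in males (log2 difference -0.20, limma adjusted p = 0.363). Of the macrophage genes Fcgr3 had 2.92 in females and 1.16 in males (log2 difference 1.01, limma adjusted p = 0.00267).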
